A study of Mus musculus with 2 samples.

Results

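The Sox genes encode transcription factors that share one DNA-binding domain, the HMG box. Those followed here were chosen by name as Sox2, Sox4, Sox5, Sox8, Sox9, Sox10, Sox11, Sox12, Sox17 and Sox18, which makes 10 of the 31053 genes in the files. They were read as raw UMIs (unique molecular identifiers, 1 per captured RNA molecule) in single cells of mouse eye cups at e13.5, an embryonic stage, after removal of cornea, lens and optic nerve. The control library came from 3 pooled Myrf fl/fl samples and the mutant library from 3 pooled Rx>cre Myrf fl/fl samples. Both carry the floxed allele of Myrf, a membrane-bound transcription factor. Only the mutant carries Cre recombinase, driven from Rx, a gene of the early eye field, from which the retina and the RPE arise. With 1 library per genotype there was no replicate and no test, the intervals given here cover counting error only, and a difference between the libraries cannot be told apart from a difference between the pools.

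Sox proteins fall into subfamilies by sequence, and members of a subfamily often share tasks. Sox2 (SoxB1) keeps neural progenitors, including those of the retina, in a dividing state. Sox4, Sox11 and Sox12 (SoxC) act as progenitors become neurons, and Sox11 and Sox4 are known for their part in making retinal ganglion cells. Sox5 (SoxD) has no activation domain of its own and works with Sox9 in cartilage. Sox8, Sox9 and Sox10 (SoxE) act in neural crest, glia and cartilage, and Sox9 is also known in the RPE, the retinal pigment epithelium, where it helps switch on visual cycle genes. Sox17 and Sox18 (SoxF) are endothelial.

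The 10 genes share a stretch at the start of the HMG box that is nearly the same in all of them, and it is shown because it is what the family shares. Each line gives 30 bases of coding strand, 5′ to 3′, from GRCm38 with the GENCODE M21 annotation, and capitals mark bases that differ from the most frequent base of the 10 genes at that place.
Sox2: aagAggcccatgaacgccttcatggtAtgg
Sox4: aagcggcccatgaacgccttTatggtgtgg
Sox11: aaAcggcccatgaacgccttcatggtgtgg
Sox12: aagcggccGatgaacgcGttcatggtgtgg
Sox5: aagcgTccAatgaaTgccttcatggtgtgg
Sox8: aagcggcccatgaaTgccttcatggtgtgg
Sox9: aagcgAcccatgaacgccttcatggtgtgg
Sox10: aagAggcccatgaacgccttcatggtgtgg
Sox17: CGgcggccGatgaacgccttTatggtgtgg
Sox18: CGgcggcccatgaacgccttcatggtgtgg

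All of these windows are coding sequence within 1 exon. On the plus strand lie Sox2 (chr3:34650545-34650574, in its only exon) and Sox9 (chr11:112782900-112782929, exon 1 of 3). The others are on the minus strand: Sox4 (chr13:28952815-28952844) and Sox11 (chr12:27342232-27342261) in their only exon, Sox12 (chr2:152397549-152397578, exon 1 of 2), Sox5 (chr6:143841247-143841276, exon 13 of 15), Sox8 (chr17:25570196-25570225, exon 1 of 3), Sox10 (chr15:79163375-79163404, exon 2 of 4), Sox17 (chr1:4493173-4493202, exon 4 of 5) and Sox18 (chr2:181671255-181671284, exon 1 of 2). Both SoxF genes begin the window with the same pair of changed bases, which no other member has. Within the window, genes of different subfamilies could be as alike as those of 1 subfamily, with 96.7% of bases identical for Sox2 and Sox10 and 90.0% for Sox4 and Sox12. Over the whole box of 79 codons, the 7 pairs within a subfamily were identical at 81.4 to 89.0% of bases, and the 38 pairs between subfamilies at 55.7 to 75.9%. Sox4 and Sox11 formed the closest pair (89.0%), ahead of Sox8 and Sox9 (85.2%). The libraries were made with a 3′ protocol, and whether any reads were shared between these genes was not examined.

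The files held 6039 control and 6754 mutant barcodes with 63483835 and 75228861 UMIs, and 5468 and 6300 cells were kept. The libraries shared 72 barcodes. Clustering without any Sox gene gave 29 clusters, of which 26 were placed in 16 classes by marker genes and 3 shallow ones stayed unnamed (11.6% of control and 7.75% of mutant cells). Class names carry "-like" because they were rebuilt from markers. In each class the class's own markers were present in both libraries, apart from Rgr in RPE-like, Tyrp1 in melanocyte-like, Tnmd in tendon or perimuscular mesenchyme-like and Higd1b in pericyte-like cells, which were at 0 in both. There were 256 control and 153 mutant RPE-like cells (4.68 and 2.43%), and 208 and 488 red blood cell-like cells (3.80 and 7.75%). Myrf itself was at 155 against 30 UMIs in RPE-like cells, 74.0 CPM (a gene's share of all UMIs of the class, times 1000000) against 20.1 CPM, a log2 ratio of mutant over control of -1.84 (95% counting interval -2.50 to -1.31).

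Most of the 10 genes had a home class, here meaning the class with the highest level. Sox2 was highest in retinal progenitor-like cells, Sox4 and Sox11 in amacrine or horizontal precursor-like cells, Sox5 and Sox10 in Schwann or neural crest-like cells, Sox8 in muscle-like cells, and Sox17 and Sox18 in endothelium-like cells, in both libraries. Sox9 was highest in RPE-like cells in the control and in tendon or perimuscular mesenchyme-like cells in the mutant. Sox12 had no clear home, and its highest class was retinal ganglion cell-like in the control and Schwann or neural crest-like in the mutant. The class of highest level was thus the same in both libraries for 8 of the 10 genes.

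**Figure D1:**
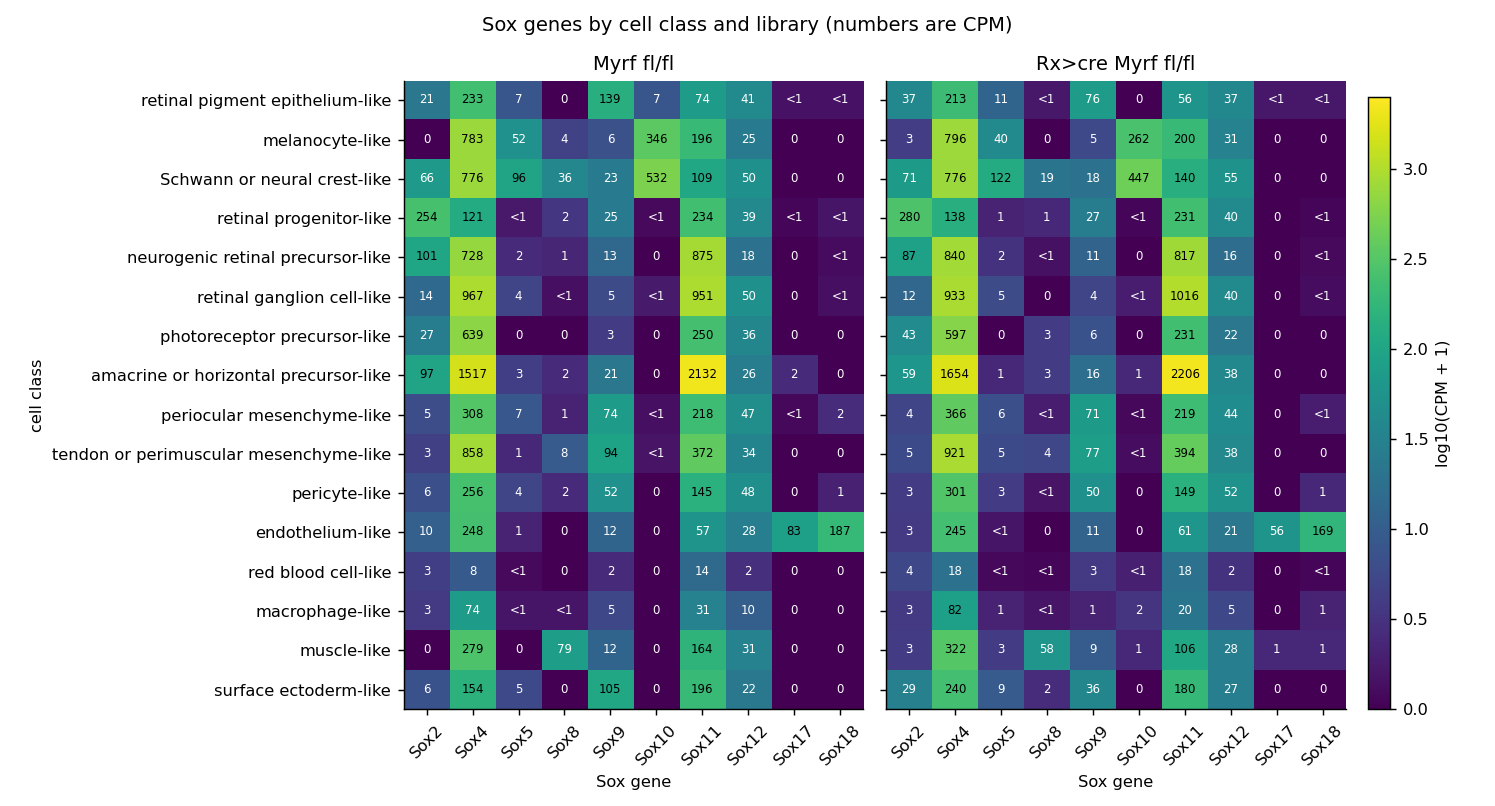
Level of the 10 Sox genes in CPM (numbers in the cells, colour as log10(CPM + 1)) in the 16 cell classes, in the Myrf fl/fl library on the left and the Rx>cre Myrf fl/fl library on the right. Sox4 and Sox11 fill most rows, whereas Sox17 and Sox18 stand out in the endothelium-like row and Sox10 in the melanocyte-like and Schwann or neural crest-like rows.

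Of 160 pairs of gene and class, 86 had at least 20 UMIs over both libraries, the minimum for reading a ratio, and 5 of these differed by 2-fold or more, 3 lower and 2 higher in the mutant. Over all genes and classes the same rule called 3.52% of 133541 pairs. The median log2 ratio of the 86 was -0.02, and 22 counting intervals left out 0. The 5 pairs were Sox9, lower, and Sox2, higher, in surface ectoderm-like cells, Sox2, lower, in endothelium-like cells, Sox4, higher, in red blood cell-like cells, and Sox12, lower, in macrophage-like cells. None was in a class of the retina or the RPE. Sox10 in RPE-like cells, at 15 control and 0 mutant UMIs, was under the minimum of 20 UMIs and is described further on. The same rule, read over all genes of a class, called 5.22% in surface ectoderm-like, 2.83% in endothelium-like, 13.8% in red blood cell-like and 4.27% in macrophage-like cells. No member passed 2-fold in the other classes with no list described further on, where 4.56% of all genes did so in photoreceptor precursor-like, 3.88% in amacrine or horizontal precursor-like, 2.36% in tendon or perimuscular mesenchyme-like, 2.57% in pericyte-like and 5.28% in muscle-like cells.

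**Figure D2:**
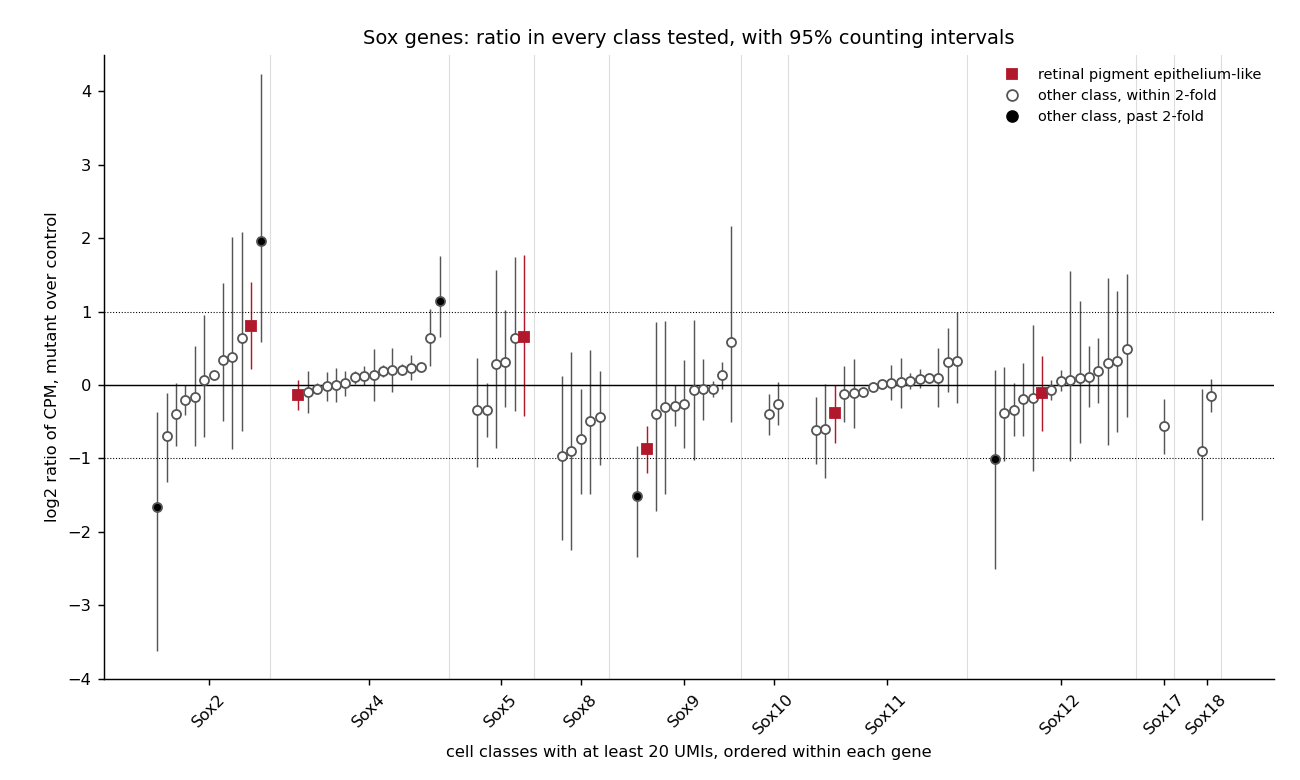
Log2 ratio of CPM, mutant over control, for each Sox gene in every class with at least 20 UMIs, ordered by value within a gene, with 95% counting intervals and dotted lines at 2-fold. Filled circles are the 5 pairs past 2-fold, and the red squares for RPE-like cells run from -0.87 for Sox9 to 0.80 for Sox2.

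Sox2 was highest in the progenitors of the retina. Retinal progenitor-like cells held 4922 of the control and 5347 of the mutant UMIs, that is 86.5 and 86.7% of all Sox2 UMIs in the kept cells. The level there was 254 CPM (95% interval 247 to 262) in the control and 280 CPM (272 to 287) in the mutant, which gives a log2 ratio of 0.14 (0.08 to 0.19). It was unequal within the class, and it went with depth. The clusters led by Sfrp2 and Vax2os and by Fgf15 and Sfrp2 had 272 and 302 CPM in the control library and 289 and 340 CPM in the mutant, against 127 and 105 CPM in the other clusters of the control and 156 and 123 CPM in the mutant. Those other clusters were led by Hmmr and Dapl1 and by Aldh1a1 and Dapl1, and they were the shallower ones, with median depths of 4700 and 3977 UMIs against 14352.5 and 19586 UMIs. The part of depth in the Sox2 levels was not tested.

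The Sox2 level was lower in neurogenic retinal precursor-like than in retinal progenitor-like cells, and lower again in retinal ganglion cell-like cells. In neurogenic retinal precursor-like cells it was 101 CPM in the control and 87.4 CPM in the mutant, with 148 and 141 CPM in the cluster led by Neurog2 and 54.6 and 46.5 CPM in the cluster led by Gal, Btbd17 and Atoh7. Retinal ganglion cell-like cells had 13.7 and 12.3 CPM. Red blood cell-like cells, taken as the background because no Sox2 is expected in them, had 3.31 and 4.39 CPM. They were far deeper, with medians of 22476.5 and 22723.5 UMIs against 3734 and 3044 UMIs in ganglion cell-like cells. Ganglion cell-like cells held 37 Sox2 UMIs in 326 control and 41 in 453 mutant cells. Red blood cell-like cells held 14 in 208 and 45 in 488 cells. CPM is thus no even measure of background across these depths, and whether ganglion cell-like cells exceeded it was not tested. Amacrine or horizontal precursor-like cells kept more than ganglion cell-like cells, 97.0 CPM in the control and 59.5 CPM in the mutant. These came from 59 and 41 UMIs, a log2 ratio of -0.69 (-1.32 to -0.11). Photoreceptor precursor-like cells had 26.7 and 43.1 CPM from 9 and 14 UMIs, and 9 of the mutant UMIs lay in 1 cell. Outside the retina, Schwann or neural crest-like cells had 66.1 and 70.7 CPM.

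Both differences of Sox2 past 2-fold rested on few UMIs. In endothelium-like cells there were 18 control and 5 mutant UMIs, 9.98 against 2.78 CPM, a log2 ratio of -1.66 (-3.63 to -0.36), where 2.83% of genes passed 2-fold. The summed level of the 10 retinal progenitor markers in these cells was 620 CPM in the control and 388 CPM in the mutant, with 3 of the 8 that reached 20 UMIs lower past 2-fold. The part of these markers in the Sox2 difference was not tested. The ratio was -0.61 as a mean over cells and -0.16 with cells over 2000 UMIs left out. In surface ectoderm-like cells there were 4 control and 17 mutant UMIs, 6.28 against 28.9 CPM, a log2 ratio of 1.97 (0.59 to 4.24), where 5.22% of genes passed 2-fold. The 17 UMIs lay in 5 cells and 7 of them in 1 cell, the retinal progenitor markers were at 822 and 1202 CPM with 5 of 8 higher past 2-fold, and their part was not tested either. The ratio was 0.19 with cells over 2000 UMIs left out.

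Genes that work with Sox2 or are its targets in neural progenitors were listed for comparison. In retinal progenitor-like cells all 12 had at least 20 UMIs, 6 were lower and 6 higher in the mutant, none passed 2-fold (1.31% of all genes did), and the median log2 ratio was -0.01 against -0.02 for all genes. Rax, an eye field homeobox gene, was at 498 and 538 CPM (0.11, interval 0.07 to 0.15), and Hes1, a Notch effector, at 429 and 408 CPM (-0.07, -0.12 to -0.03). In RPE-like cells 9 of 11 were lower and 2 higher, the median was -0.18 against -0.03 for all genes, and none passed 2-fold (4.99% of all genes did). Among the lower ones, the intervals of Rax, Otx2 and Lhx2 left out 0. Rax was at 27.2 and 15.4 CPM (-0.79, -1.59 to -0.10). Otx2 was at 350 and 272 CPM (-0.36, -0.54 to -0.18) and Lhx2 at 204 and 163 CPM (-0.33, -0.56 to -0.10). The 2 higher ones were Hes5, another Notch effector, at 20.5 and 35.5 CPM (0.78, 0.18 to 1.40), and Nes, the gene of the progenitor filament nestin, at 7.64 and 14.7 CPM (0.92, -0.05 to 1.97).

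Sox4 and Sox11 had their highest levels in amacrine or horizontal precursor-like cells. In amacrine or horizontal precursor-like cells Sox4 was at 1517 CPM in the control and 1654 CPM in the mutant, and Sox11 at 2132 and 2206 CPM. In retinal ganglion cell-like cells Sox4 was at 967 and 933 CPM and Sox11 at 951 and 1016 CPM (log2 ratio 0.09, interval 0.02 to 0.17). In neurogenic retinal precursor-like cells Sox4 was at 728 and 840 CPM (0.21, 0.14 to 0.28) and Sox11 at 875 and 817 CPM (-0.10, -0.17 to -0.03), so that the pair moved in opposite directions there by amounts outside counting error. With coarser clusters, at resolution 0.4, the Sox4 ratio in that class was -0.04. Retinal progenitor-like cells were lower in both genes, with Sox4 at 121 and 138 CPM and Sox11 at 234 and 231 CPM. Photoreceptor precursor-like cells had Sox4 at 639 and 597 CPM but Sox11 at 250 and 231 CPM (249.6 in the control), close to the progenitors.

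Outside the retina both SoxC genes were widespread. Sox4 reached 858 and 921 CPM in tendon or perimuscular mesenchyme-like cells, 783 and 796 CPM in melanocyte-like cells and 776 and 776 CPM in Schwann or neural crest-like cells. Sox11 in the same classes had 372 and 394 CPM, 196 and 200 CPM (200.3 in the mutant), and 109 and 140 CPM. Periocular mesenchyme-like cells had Sox4 at 308 and 366 CPM (0.25, 0.20 to 0.30) and Sox11 at 218 and 219 CPM. All 5 clusters of that class had more Sox4 in the mutant, with the smallest difference in the cluster led by Osr2 and Foxl2 (285 and 297 CPM) and the largest in the one led by Pgf and Nrp2 (328 and 472 CPM).

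Red blood cell-like cells were lowest in both genes. Sox11 was at 14.0 and 17.6 CPM there. Sox4 was at 8.05 CPM from 34 UMIs in the control and 18.2 CPM from 187 UMIs in the mutant, and its log2 ratio was 1.15 (0.65 to 1.75). In this class 13.8% of all genes passed 2-fold and the median log2 ratio of all genes was 0.40, so most genes of the class had a higher CPM in the mutant, as Sox4 did. The Sox4 ratio was 0.43 when the libraries were clustered without integration, 0.55 as a mean over cells, and -0.77, from 5 UMIs, with cells over 2000 UMIs left out.

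Sox11 was lower in muscle-like cells of the mutant, 164 CPM against 106 CPM from 99 and 73 UMIs (-0.62, -1.08 to -0.17). The 8 muscle markers of that class summed to 7622 and 5382 CPM, with 2 of them lower past 2-fold, and their part in the Sox11 value was not tested. The ratio lay between -1.16 and -0.13 over 10 other ways of processing. In surface ectoderm-like cells Sox4 was at 154 and 240 CPM (0.64, 0.26 to 1.03) and Sox11 at 196 and 180 CPM (180.5 in the mutant). The Sox4 ratio there was 1.79 as a mean over cells, 1.99 with cells over 2000 UMIs left out and 0.40 with cells over 20000 UMIs left out.

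Sox12, the third SoxC gene, was spread evenly. Leaving out red blood cell-like cells (1.89 and 2.15 CPM) and macrophage-like cells (9.59 and 4.501 CPM), all classes lay between 15.6 and 54.8 CPM. Retinal ganglion cell-like cells had 50.3 and 39.9 CPM (-0.33, -0.69 to 0.02), periocular mesenchyme-like cells 46.7 and 44.5 CPM, and retinal progenitor-like cells 38.7 and 40.3 CPM. The macrophage-like difference rested on 17 and 8 UMIs, with a log2 ratio of -1.003 (-2.51 to 0.20), and 4.27% of genes passed 2-fold in that class. The Sox12 ratio there passed 2-fold in 8 of 10 other ways of processing and lay between -3.92, as a mean over cells, and -0.71, with a mitochondrial limit of 5%. Some of the 8 only repeat the main value, which was itself just past 2-fold. Resolutions 0.4 and 1.6 gave -1.003 again, and a class total without haemoglobin, mitochondrial and ribosomal protein genes gave -1.01.

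Most cells of 3 retinal classes held both Sox4 and Sox11. After each cell was thinned to 3000 UMIs, 78.8% of control and 80.3% of mutant retinal ganglion cell-like cells had a UMI of both genes (145 of 184 and 184 of 229 cells). The share was 98.2 and 92.4% in amacrine or horizontal precursor-like cells, 65.8 and 66.2% in neurogenic retinal precursor-like cells, and 25.9 and 28.7% in periocular mesenchyme-like cells. Among 10 known targets of SoxC proteins in neurons, none passed 2-fold in retinal ganglion cell-like cells (1.74% of genes did), with 4 lower, 6 higher and a median log2 ratio of 0.03. In neurogenic retinal precursor-like cells 5 were lower and 5 higher (median 0.02), none past 2-fold (1.56% of genes). Isl1, a LIM homeobox gene of ganglion cells, was at 427 and 559 CPM there (0.39, 0.30 to 0.48), and Tubb3, a neuronal tubulin, at 2443 and 2869 CPM (0.23, 0.19 to 0.27). The class pools 2 clusters whose mix differed between the libraries. The cluster led by Gal, Btbd17 and Atoh7, with Isl1 and Tubb3 among its leading genes, had 137 control and 196 mutant cells. The cluster led by Neurog2 had 158 and 160. The part of this mix in these values, and in the Sox4 and Sox11 values of the class, was not tested.

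Sox5, the SoxD gene, was low nearly everywhere. Schwann or neural crest-like cells had 95.8 and 122 CPM (29 and 69 UMIs), melanocyte-like cells 52.0 and 40.4 CPM (44 and 26 UMIs), and RPE-like cells 7.16 and 11.4 CPM (15 and 17 UMIs). None of these log2 ratios had an interval that left out 0. Periocular mesenchyme-like cells had 7.42 and 5.86 CPM as a class, but the cluster led by Col9a3, Mpped2 and Cldn11 had 32.1 and 25.6 CPM, and the cluster led by Osr2, Foxl2 and Alx1 had 0 UMIs in both libraries. The same Col9a3 cluster was also the highest of the mesenchyme in Sox9.

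Sox9 was high in RPE-like cells, in surface ectoderm-like cells and in mesenchyme. In the control library RPE-like cells led with 139 CPM (123 to 156), followed by surface ectoderm-like cells with 105 CPM (81.5 to 134), tendon or perimuscular mesenchyme-like cells with 93.8 CPM (80.9 to 108) and periocular mesenchyme-like cells with 73.7 CPM (69.8 to 77.8). The interval of RPE-like cells overlapped that of surface ectoderm-like cells and no other. In the mutant library the order was different, with tendon or perimuscular mesenchyme-like cells at 77.2 CPM (68.0 to 87.3), RPE-like cells at 75.6 CPM (62.3 to 90.9) and periocular mesenchyme-like cells at 71.1 CPM (67.6 to 74.7), 3 neighbours whose intervals overlap, then pericyte-like cells at 49.8 CPM and surface ectoderm-like cells at 35.7 CPM (22.1 to 54.6). Retinal progenitor-like cells had 24.6 and 26.9 CPM (0.13, -0.05 to 0.31).

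Within the periocular mesenchyme Sox9 marked 1 cluster. The cluster led by Col9a3, Mpped2 and Cldn11 had 209 CPM in the control and 208 CPM in the mutant from 581 and 649 UMIs, more than any other named cluster of either library. The other 4 mesenchyme clusters ran from 8.85 and 5.65 CPM, in the cluster led by Osr2 and Foxl2, to 63.1 and 71.5 CPM, in the cluster led by Pgf and Nrp2. Genes that SoxD and SoxE proteins switch on in cartilage were present in the class without a difference past 2-fold. Of 12, 8 had at least 20 UMIs, with 4 lower, 4 higher and a median log2 ratio of 0.04 (1.65% of genes passed 2-fold). Col2a1, the main cartilage collagen, was at 127 and 117 CPM (-0.12, -0.20 to -0.04), and Matn4, a matrilin, at 55.9 and 71.4 CPM (0.35, 0.24 to 0.47).

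**Figure D3:**
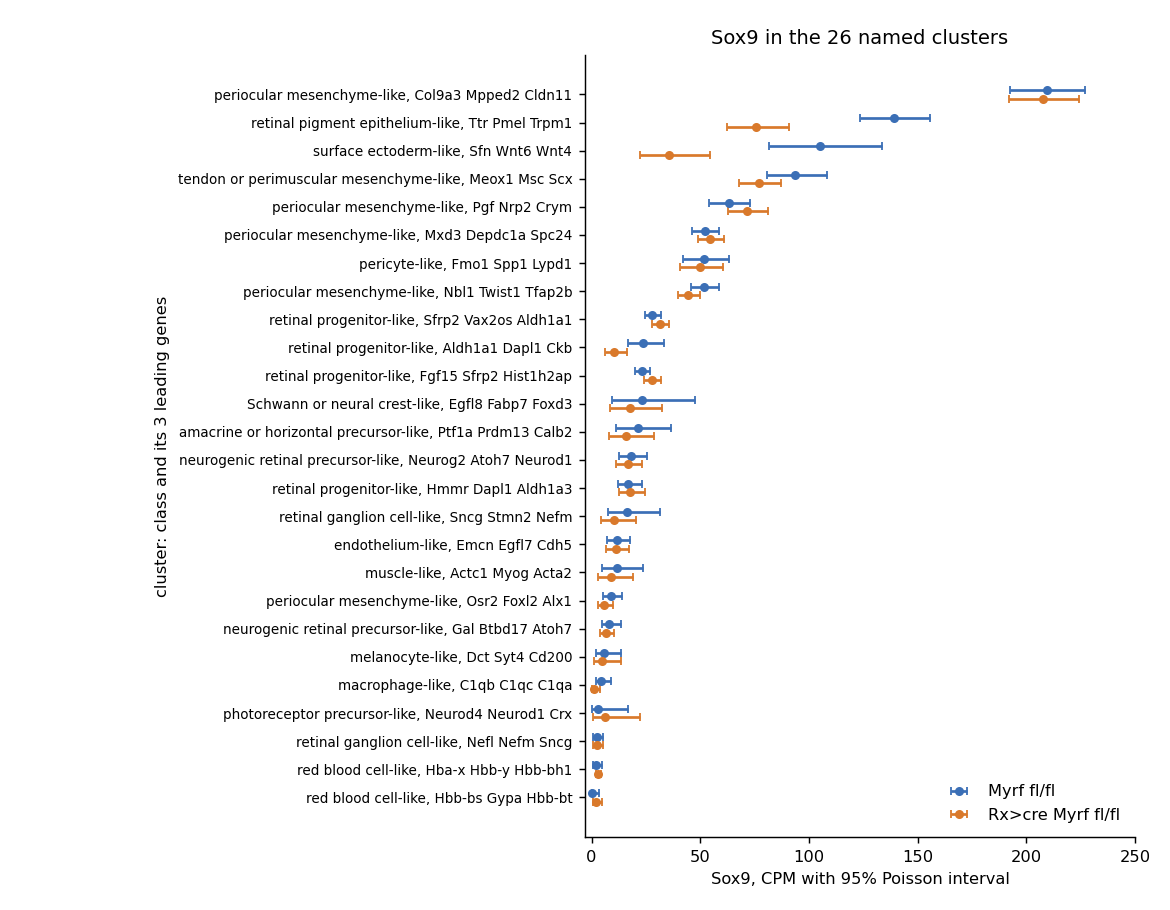
Sox9 level in CPM (horizontal axis) with 95% Poisson intervals in each of the 26 named clusters, labelled by class and leading genes and ordered by the Myrf fl/fl library (blue), with the Rx>cre Myrf fl/fl library in orange. The mesenchyme cluster led by Col9a3 has 209 and 208 CPM, while RPE-like cells go from 139 to 75.6 CPM.

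In surface ectoderm-like cells Sox9 had 67 control and 21 mutant UMIs, with a log2 ratio of -1.51 (-2.34 to -0.83). This value rested on the deeper cells. It was -0.81 with cells over 20000 UMIs left out, -0.40 with cells over 2000 UMIs left out and -0.40 as a mean over cells. The median depth was 3241.5 UMIs for control and 1693.5 UMIs for mutant cells, and after thinning to 3000 UMIs 9 of 37 control cells and 4 of 28 mutant cells had a Sox9 UMI (24.3 and 14.3%). The 9 surface ectoderm markers summed to 2404 and 2317 CPM, with none past 2-fold, and the red blood cell markers to 442 and 2411 CPM, with 6 of 6 higher past 2-fold. Their part in the Sox9 value was not tested.

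Sox10 belonged to neural crest derivatives. It was at 532 CPM in the control and 447 CPM in the mutant in Schwann or neural crest-like cells (161 and 253 UMIs, -0.25, -0.54 to 0.04) and at 346 and 262 CPM in melanocyte-like cells (293 and 169 UMIs, -0.40, -0.68 to -0.12). Melanocyte-like cells held 60.4% of the control and 37.5% of the mutant UMIs of the gene, and Schwann or neural crest-like cells 33.2 and 56.1%. The red blood cell markers in melanocyte-like cells summed to 268 and 3459 CPM, with 6 of 6 higher past 2-fold, and their part in the values of that class was not tested. Of 12 known targets of Sox10, 9 could be read in melanocyte-like cells, 6 lower and 3 higher (median -0.06), and 7 in Schwann or neural crest-like cells, 5 lower and 2 higher (median -0.07). None passed 2-fold, where 4.07 and 5.30% of all genes did. No member passed it in either class. Mitf, the master regulator of pigment cells, was at 250 and 152 CPM in melanocyte-like cells (250.3 in the control, -0.71, -1.08 to -0.37).

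Sox8 was the rarest SoxE gene, with 162 control and 121 mutant UMIs in all kept cells. Muscle-like cells had 48 and 40 of them, 79.3 and 58.3 CPM (-0.44, -1.09 to 0.19), and Schwann or neural crest-like cells 11 in each library, 36.3 and 19.4 CPM. Retinal progenitor-like cells held a trace, 48 and 28 UMIs or 2.48 and 1.47 CPM (-0.74, -1.49 to -0.06), a ratio that lay between -1.01 and -0.44 over 9 other ways of processing. Over all kept cells the log2 ratio of Sox8 was -0.67, and each of the 5 classes with at least 20 UMIs had a lower mutant value.

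Sox17 and Sox18 were endothelial, and 94.3 and 98.1% of Sox17 UMIs and 87.1 and 90.2% of Sox18 UMIs lay in endothelium-like cells. Sox17 was at 83.1 CPM in the control and 56.1 CPM in the mutant from 150 and 101 UMIs (-0.56, -0.95 to -0.19). Sox18 was at 187 and 169 CPM from 338 and 305 UMIs (-0.15, -0.37 to 0.08). Thinned shares did not follow the Sox17 level, with a UMI in 15.5% of control and 17.6% of mutant cells, and the Sox17 ratio was -0.12 with cells over 20000 UMIs left out, -1.17 as a mean over cells and -1.42 with cells over 2000 UMIs left out. Cells with both genes made up 6.19 and 6.86% of the class. A Sox18 UMI was found in 40.0% of control cells with Sox17 and in 36.6% of those without it, and in 38.9 and 33.3% in the mutant, counts of 6 and 7 cells that are too few to set these shares apart.

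Of 12 known SoxF targets in endothelium, 10 had at least 20 UMIs, 8 of them lower and 2 higher. The median log2 ratio was -0.16 against -0.06 for all genes, and none passed 2-fold, where 2.83% of all genes did. Vwf, the clotting factor carrier, was at 70.9 and 40.5 CPM (-0.80, -1.24 to -0.38) and Ephb4, a venous receptor, at 59.9 and 40.5 CPM (-0.56, -1.01 to -0.12). Cldn5, a tight junction gene, was higher, at 492 and 588 CPM (0.26, 0.13 to 0.39). The 10 endothelium markers summed to 4911 and 4820 CPM.

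RPE-like cells, in which Myrf itself was lower in the mutant as given above, had 6 of the 10 genes at 20 UMIs or more. None of them passed 2-fold, where 4.99% of 9720 genes did, and their median log2 ratio was -0.12 against -0.03 for all genes. Sox9 had 291 control and 113 mutant UMIs, 139 against 75.6 CPM, a log2 ratio of -0.87 (-1.20 to -0.56). Over 10 other ways of processing this ratio lay between -1.08 and -0.84, and it passed 2-fold in 1 of them, the mean over cells. Sox2 had 45 and 56 UMIs, 21.5 CPM (15.7 to 28.8) against 37.5 CPM (28.3 to 48.7), a ratio of 0.80 (0.21 to 1.40), but the ratio was 0.10 with a mitochondrial limit of 5%, 0.12 as a mean over cells, and -0.96, from 10 UMIs, with cells over 2000 UMIs left out, and 1.07 with cells over 20000 UMIs left out. Sox5 was at 7.16 and 11.4 CPM (0.66, -0.42 to 1.77), with ratios of -0.06 to 1.03 over 9 other ways of processing. Sox4 was at 233 and 213 CPM (-0.13, -0.34 to 0.07), Sox11 at 73.5 and 56.2 CPM (-0.38, -0.79 to 0.01) and Sox12 at 40.6 and 37.5 CPM (-0.11, -0.63 to 0.39).

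Sox10 in RPE-like cells was at 15 UMIs in 13 control cells, 7.16 CPM (4.01 to 11.8), and at 0 UMIs in the mutant. Taking the 3 counts over the class that a count of 0 allows, or 2.01 CPM, the mutant level was at least 3.57-fold lower than the control value. The counting interval of the log2 ratio, which also takes in the error of the control, reached up to -1.36. The genes that define Schwann cells and neural crest were nearly absent from these cells, at a summed 14.3 and 15.4 CPM, with Foxd3, Cdh19, Ngfr, Gfra3 and Dhh at 0 in the control, and Pax3, the melanocyte marker that RPE lacks, was at 0 in both libraries. No thinned RPE-like cell held Sox9 and Sox10 together, in 133 control cells (3 with Sox10) or 80 mutant cells.

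Markers of other cells were not even between the libraries in this class. The 10 retinal ganglion cell markers summed to 201 CPM in the control and 49.5 CPM in the mutant, with 7 of the 8 at 20 UMIs lower past 2-fold. The 8 neurogenic retinal precursor markers summed to 264 and 549 CPM, with 3 of 5 higher past 2-fold. Retinal progenitor markers were at 1173 and 890 CPM, with 2 of 10 lower past 2-fold and none higher, and red blood cell markers at 920 and 1382 CPM. The part of these in the Sox ratios was not tested.

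At resolution 1.6 the class split by depth, into a shallower cluster (139 control and 81 mutant cells, median 1126.5 UMIs) and a deeper one (117 and 73 cells, median 15880.5 UMIs). The depths of these clusters were noticed after their values were seen. In the deeper cluster Sox9 was at 156 and 78.0 CPM (272 and 107 UMIs, -0.99, -1.34 to -0.67), and in the shallower one at 56.3 and 48.8 CPM from only 19 and 6 UMIs (-0.06, -1.82 to 1.17). The RPE markers were also lower in the mutant in the deeper cluster, at a summed 14960 and 9944 CPM. In the shallower cluster they summed to 8689 and 9680 CPM. The part of the RPE markers in the Sox9 values was not tested. Sox2 was at 18.9 and 38.6 CPM in the deeper cluster (33 and 53 UMIs, 1.01, 0.37 to 1.70, which is past 2-fold) and at 38.5 and 32.5 CPM in the shallower one (13 and 4 UMIs). Sox11 went the other way, at 219 and 114 CPM in the shallower cluster (-0.87, -1.89 to -0.11) and 42.5 and 51.0 CPM in the deeper one (0.26, -0.23 to 0.75).

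Sox4 hardly differed between the depths, with 252 and 219 CPM in the shallower and 233 and 212 CPM in the deeper cluster, and all 15 Sox10 UMIs of the control lay in the deeper cluster. Neurogenic precursor markers also split by depth, at 1132 and 471 CPM in the shallower and 109 and 557 CPM in the deeper cluster. In both clusters these markers went in the direction of Sox11 and of Sox2. The Sox2 ratio in the shallower cluster was only -0.03 (-2.32 to 1.45). Ganglion cell markers went against Sox11 in both, at 133 and 219 CPM in the shallower and 218 and 34.2 CPM in the deeper cluster. Retinal progenitor markers were lower in the mutant in both, at 1579 and 1130 CPM and at 1088 and 869 CPM. In the deeper cluster this was against the direction of Sox2 and of Sox11. The part of any of these markers in the values of either gene was not tested. Red blood cell markers made up 4402 and 10842 CPM of the shallower cluster, against 330 and 538 CPM in the deeper one.

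**Figure D4:**
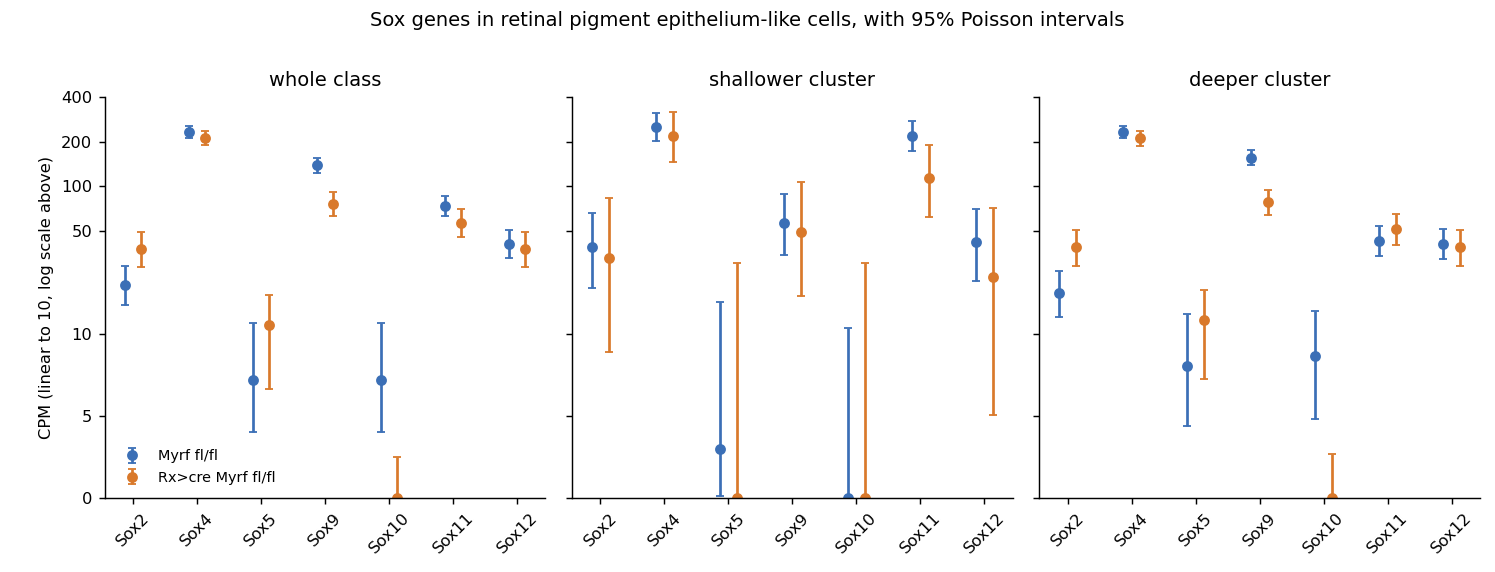
Level in CPM with 95% Poisson intervals of 7 Sox genes in RPE-like cells (left), and in the shallower (middle) and deeper (right) clusters into which they split, for Myrf fl/fl in blue and Rx>cre Myrf fl/fl in orange; the vertical axis is linear to 10 and logarithmic above. Sox9 is apart in the whole class and the deeper cluster, at 156 and 78.0 CPM in the latter, while Sox4 points overlap in all 3 panels.

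Genes downstream of SoxE proteins were split in RPE-like cells. Of the cartilage list, 5 could be read there, and Col9a3, the gene of a type IX collagen chain, was at 115 and 25.4 CPM (-2.14, -2.71 to -1.67). Col2a1, of type II collagen, was at 16.2 and 15.4 CPM (-0.06, -0.91 to 0.73). The other 3 had higher values in the mutant, with Col9a1 at 138 and 202 CPM (0.55, 0.31 to 0.78), Col9a2 at 32.9 and 46.2 CPM (0.49, -0.02 to 0.99) and Col11a1, of type XI collagen, at 36.3 and 92.4 CPM (1.34, 0.93 to 1.77). Of the Sox10 targets only 4 could be read, with Mitf at 174 and 154 CPM (-0.17, -0.42 to 0.07), Dct at 1994 and 1446 CPM (-0.46, -0.54 to -0.39) and Tyr at 495 and 394 CPM (-0.33, -0.48 to -0.18).

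The study's own list of 43 genes placed under Sox10 by regulon inference was partly chosen on these samples and so is not independent evidence of a direction. Of 28 genes with at least 20 UMIs in RPE-like cells, 24 were lower and 4 higher in the mutant, 12 lower and 1 higher past 2-fold, where 3.12 and 1.87% of all genes did so. The median log2 ratio was -0.87 against -0.03 for all genes. The 12 were Abhd2, Atp2b2, Cdh3, Col9a3, Crim1, Ermn, Rdh10, Sema3b, Sgk3, Slc16a8, Tmem98 and Wfikkn2. Slc16a8, a lactate transporter of the RPE, was at 88.3 and 14.1 CPM (-2.59, -3.38 to -2.00), Atp2b2, a calcium pump, at 29.6 and 6.69 CPM (-2.03, -3.27 to -1.17) and Rdh10, a retinol dehydrogenase, at 172 and 51.5 CPM (-1.73, -2.12 to -1.38). F3, the coagulation factor tissue factor, was the gene higher past 2-fold, at 17.7 and 38.2 CPM (1.10, 0.49 to 1.75). In melanocyte-like cells only 4 of the 43 reached 20 UMIs, all 4 lower, none past 2-fold, with a median of -0.13.

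Shares of cells with a UMI were compared at 1 depth. Thinned to 3000 UMIs, 133 control and 80 mutant RPE-like cells remained and 123 and 73 shallower ones were left out. A Sox9 UMI was found in 30.8% (23.1 to 39.4%) of control and 25% (16.0 to 35.9%) of mutant RPE-like cells, against 0 of 178 and 1.21% of red blood cell-like cells. Without thinning the Sox9 shares were 40.2 and 34.0%. The intervals overlap, so the lower level was not detectable as a lower share at this depth. Sox2 was found in 2.26% (3 cells) and 10.0% (8 cells) of RPE-like cells, against 0.562 and 1.21% in red blood cell-like cells, and Sox10 in 2.26% (3 cells) and 0 of 80, which allows a share of up to 3.75% of cells with a UMI, not of cells that express the gene (the Clopper-Pearson limit is 4.51%). Median depths before thinning were 3956 and 3853 UMIs in RPE-like and 22476.5 and 22723.5 UMIs in red blood cell-like cells.

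In their home classes the shares were far above those of red blood cell-like cells. Sox2 was found in 43.9 and 47.8% of retinal progenitor-like cells, and Sox10 in 71.4 and 75.7% of Schwann or neural crest-like cells and in 61.8 and 40.0% of melanocyte-like cells, the last from 21 of 34 and 10 of 25 cells. Sox18 was found in 37.1 and 34.3% of endothelium-like cells, Sox5 in 33.3 and 32.4% of Schwann or neural crest-like cells, and Sox8 in 26.1 and 12.5% of muscle-like cells, from 6 of 23 and 3 of 24 cells. Sox4 in red blood cell-like cells was at 1.12 and 3.87%. All intervals of control and mutant overlapped in this group of shares.

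**Figure D5:**
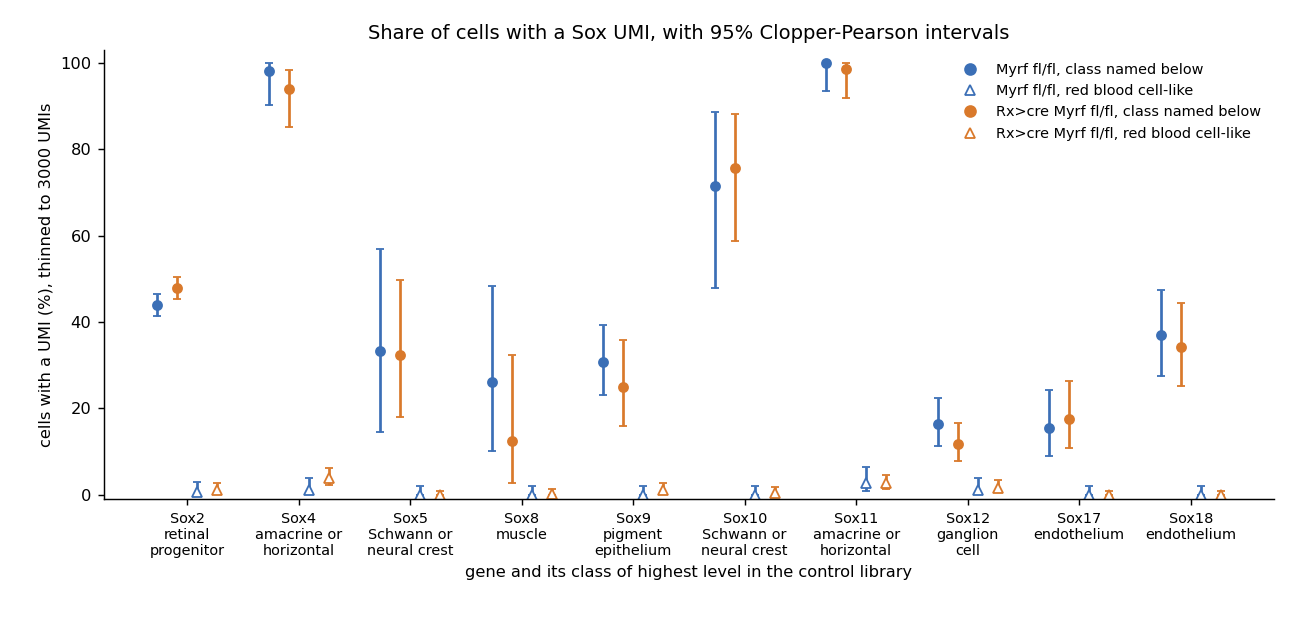
Share of cells with a UMI (percent, cells thinned to 3000 UMIs, 95% Clopper-Pearson intervals) for each Sox gene in its class of highest control level (circles) and in red blood cell-like cells (triangles), blue for Myrf fl/fl and orange for Rx>cre Myrf fl/fl. Sox11 reaches 100 and 98.5% in amacrine or horizontal precursor-like cells, and Sox9 in RPE-like cells has 30.8 and 25%.

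Genes whose pattern was like that of each Sox gene were sought by Pearson's r of log2(CPM + 10) over the 32 values of 16 classes and 2 libraries, among 12237 genes. The points share the libraries, and r is a description only. Sox2 was close to Mab21l1 (0.880), Sox9 to Gsta4 (0.909) and Antxr1 (0.901), Sox8 to Olfml2b (0.909) and Des (0.887), Sox10 to Klhl30 (0.984), Sox5 to Dagla (0.934), Sox11 to Sbk1 (0.926) and Sox12 to Tmem80 (0.898). Sox17 was closest to Mmrn1 (0.994) and Flt1 (0.994) and Sox18 to Aplnr (0.997). Sox4 was closest to Gm26735 (0.957), a non-coding gene that overlaps it on the opposite strand, and then to Rbm18 (0.933). Whether any reads of Sox4 and Gm26735 were counted for the wrong gene was not examined.

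Among the members the closest pairs were Sox17 and Sox18 (0.994), Sox5 and Sox10 (0.946), Sox4 and Sox11 (0.815) and Sox4 and Sox12 (0.635). All but Sox5 and Sox10 were pairs within a subfamily, whereas the SoxE genes were not alike in pattern, with r of -0.15 for Sox9 and Sox10 and 0.31 for Sox8 and Sox10.

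The files held 9 other Sox genes. Sox3, a SoxB1 gene like Sox2, was at 27.2 and 25.7 CPM in retinal progenitor-like cells and at 26.7 and 28.8 CPM in RPE-like cells. Sox6, a SoxD gene like Sox5, was at 23.4 and 21.4 CPM in RPE-like cells and 31.9 and 20.2 CPM in melanocyte-like cells. Sox7, the third SoxF gene, was at 48.2 and 53.3 CPM in endothelium-like cells (0.14, -0.29 to 0.58). Sox13 was spread thinly, with 5.57 and 5.16 CPM in periocular mesenchyme-like cells. Sox1, Sox14, Sox15, Sox21 and Sox30 had at most 36 UMIs in either library.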

How the data were processed

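The deposited files hold raw UMI counts per gene and cell barcode, which per the labels the authors made with Cell Ranger 7.1.0 on mm10 (Seurat 4.1.1 is also named). Whether introns were counted is not given in the sources used here. Each genotype was measured as 1 pool, so no test was made. Barcodes were dropped below 200 genes or above 15% mitochondrial UMIs, and so were 51 control and 74 mutant doublets called by Scrublet (scanpy 1.11.5). Clusters came from Seurat 5.3.0 (R 4.3.3) on 2000 variable features less the Sox genes, 30 components and resolution 0.8. Classes were named from marker lists, with naming thresholds set after the clusters were seen. Counts were summed per class and library as CPM with exact Poisson intervals, and ratios took 1 added UMI, at least 20 UMIs and an exact binomial interval of 95%, all for counting error only. Shares have Clopper-Pearson intervals after thinning to 3000 UMIs, and a count of 0 allows 3. Sequences came from GRCm38 with GENCODE M21. Named genes were the members, other Sox genes, Myrf, list genes past 2-fold and, for each member, up to 3 genes closest by r among those with at least 200 UMIs. List genes named short of 2-fold, and the marker values, were picked as examples after their values were seen. Members and lists were chosen with earlier results of these data known. No other column of per-sample values was present. The alternatives were doublets kept, no integration, resolutions 0.4 and 1.6, Sox genes among the variable features, other limits on UMIs and mitochondrial share, other class totals, and a mean over cells. Some genes that these rules would name are not reported here.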

Additional observations from a re-analysis of the deposited data

How the results depend on the processing

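No paired analysis was possible because each genotype was 1 library of pooled samples. With cells over 2000 UMIs left out, as the study's upper limit would do, only 107 control and 63 mutant RPE-like cells remained. The class of highest level was then the same in both libraries for 4 of the 10 genes in place of 8, and 2 pairs of gene and class passed 2-fold in place of 5. Under that limit the log2 ratio in RPE-like cells was -0.96 for Sox2 from 10 UMIs and 0.62 for Sox12 from 6 UMIs, and that of Sox4 in red blood cell-like cells was reversed to -0.77 from 5 UMIs. A mitochondrial limit of 5% gave 0.10 for Sox2 and -0.88 for Sox11 in RPE-like cells, and the mean over cells gave 0.12 for Sox2. The cause of these moves was not tested, apart from the low counts under the limit of 2000 UMIs. Under the other settings 8 to 10 genes kept 1 top class in both libraries and 4 to 6 pairs passed 2-fold. Depth limits Sox5, Sox8, Sox10 outside neural crest derivatives, and Sox17 and Sox18 outside endothelium, where counts were mostly under 20 UMIs.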
